A study of Oryza sativa with 20 samples.

Results

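Calmodulin is a small protein that binds calcium ions and, once loaded, docks onto and switches target enzymes, channels and transcription factors. A heat stimulus is known to raise free calcium in plant cells, and calmodulin is among the sensors that read such signals. Plants carry calmodulin as a small gene family, and in rice the CaM1 protein is encoded by several genes with the same amino acid sequence, so that the transcripts of one family can be regulated apart while making the same sensor. The transcripts followed here were those of 5 gene IDs out of 37248 in the expression table, chosen by name: CaM1-1 (OS03G0319300), CaM1-2 (OS07G0687200), CaM1-3 (OS01G0267900), CaM3 (OS01G0279300) and OS05G0577500, which was chosen as CaM2. Where an ID stood on several rows of the table, the row with the highest mean was used. The RefSeq gene table (assembly ASM3414082v1) lists the names CAM1-1, CAM1-2 and CAM1-3 as synonyms within 1 entry and has 1 entry each for CAM2 and CAM3, but it holds 0 of the 5 IDs. The names therefore rest on the choice of members. Whether OS05G0577500 is CaM2, or a calmodulin at all, was not checked, and it is called by its ID. Sums over the genes hardly depend on OS05G0577500, as it held at most 0.434% of them. If CaM2 has another ID, its level is missing from these sums.

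The samples were shoots of 2-week-old wild-type rice (Oryza sativa). Potted plants were turned over so that the shoots stood in water at 42 °C for 10 min (heated) or at 22 °C for 10 min (control), and were then moved to a growth chamber at 30 °C, the temperature they had grown at. Shoots were taken at 10 min, 20 min, 1 h, 2 h and then 10 h from the start of the bath, which gave 10 groups of 2 libraries, with 3 shoots in each library. Heated and control plants shared the inversion and the immersion, and the move to 30 °C was a cooling for heated plants and a warming for controls. A gap between them is called a heat difference here; how much of it comes from what 22 °C, or the warming after it, did to the controls cannot be told apart.

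Levels are FPKM (fragments scaled to the length of the transcript and to the total mapped in the group), with 1 value per group that the authors made from both libraries, so no SD stands beside a level. A gene is said to have risen or fallen only where its q-value, read from the authors' deposited table, was under 0.05. Both words compare heated with control shoots at the same time and do not describe a change over time. Log2 ratios are heated over control on the log2(FPKM + 1) scale. The background is 24219 records, distinct rows whose FPKM averaged 1 or more across all groups. Depth per library is unknown. In bulk shoots, fewer cells that express a gene and less RNA per cell cannot be told apart. As a check of the shoot label, 5 IDs listed from background knowledge as leaf photosynthesis genes each averaged 1068 to 11204 FPKM over the groups. At 10 h 2 of them were far lower, OS01G0600900 at 106 FPKM in heated and 211 FPKM in control shoots and OS09G0346500 at 22.0 FPKM in heated and 36.3 FPKM in control shoots. The rest were not: OS12G0274700, OS12G0291100 and OS12G0292400 stood at 25804, 17356 and 2502 FPKM in heated shoots. In control shoots they stood at 11692, 11781 and 1309 FPKM. Of the 5, only OS01G0600900 was called at 10 h, as lower (the authors' deposited table prints q as 0.0). For OS09G0346500 q is printed as 0.05 and was not counted.

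Of the calmodulin transcripts, CaM1-1 was lower in heated than in control shoots at 20 min, and CaM1-2 at 1 h. Each was called in the authors' deposited table and was less than 2-fold, and none of the 5 main rows rose at any time. The fall of CaM1-2 did not pass a q of 0.01, and that of CaM1-1 is printed as q = 0.01 at 2 decimals in the authors' deposited table, so on which side of 0.01 it lies cannot be read. In both cases the level in heated shoots was close to that at the end of the bath, while the level in control shoots stood higher than at 10 min. CaM1-3 and CaM3 lay on the other side, higher in heated shoots at 10 min, 20 min and 1 h, without passing the test. At 20 min the log2 ratios of CaM1-1 and CaM1-3, -0.86 and 0.67, lay just outside percentiles 10 to 90 of all records, -0.82 and 0.64. OS05G0577500 stayed under 2 FPKM in every group.

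Of the 5 genes, 4 passed the filter of a mean of at least 1 FPKM, which gave 20 comparisons over the 5 times. By the q-values of the authors' deposited table, 2 of these passed and 18 did not. Of the 4 genes, CaM1-1 and CaM1-2 were thus called at 1 time each, where 32.0% of all records were called at 1 or more times. At 20 min 1 of the 4 genes fell and 0 rose in the authors' deposited table, beside 5.82% of all records called lower and 3.22% called higher. At 1 h 1 of the 4 fell and 0 rose in the authors' deposited table, beside 8.12% of all records called lower and 10.9% called higher. At the other times none of the 4 was called in the authors' deposited table, beside 1.49% of all records higher and 2.16% lower at 10 min, 10.8% higher and 6.35% lower at 2 h, and 2.65% higher and 1.64% lower at 10 h. With 4 genes these counts cannot be set apart from the background. The median log2 ratio of the 4 genes ran 0.12, -0.11, -0.10, -0.07 and -0.17 through the 5 times, where the median of all records ran -0.02, -0.05, -0.06, 0.00 and 0.02.

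**Figure D1:**
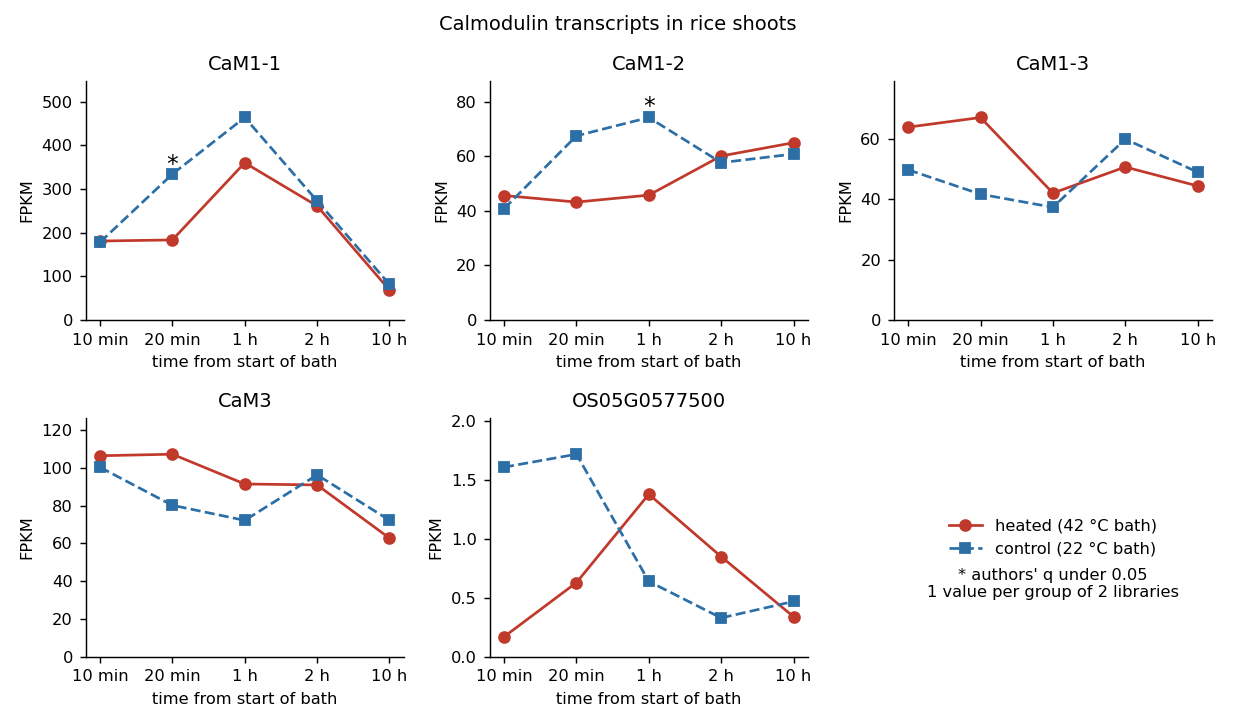
FPKM of the 5 genes (y axis, from 0, on a scale of its own in each panel) at the 5 sampling times (x axis, equally spaced), with red circles for heated and blue squares for control shoots, 1 value per group of 2 libraries. An asterisk marks a q-value under 0.05 in the authors' deposited table: CaM1-1 at 20 min and CaM1-2 at 1 h, both with the control above the heated shoots.

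CaM1-1 was the most abundant of the 5 genes in every group, with a mean of 239 FPKM that exceeded the mean of 98.3% of all records. In heated shoots it stood at 181 FPKM at 10 min, 184 FPKM at 20 min, 360.2 FPKM at 1 h, 261 FPKM at 2 h and 68.7 FPKM at 10 h. In control shoots the same times gave 178, 334, 464, 273 and 81.7 FPKM. Both series peaked at 1 h and were lowest at 10 h, and they parted mainly at 20 min, when controls stood well above their 10 min level and heated shoots did not.

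At the end of the bath CaM1-1 was the same to within 3 FPKM in heated and control shoots, with a log2 ratio of 0.02 (q = 0.97 in the authors' deposited table). At 20 min it was lower in heated shoots, at 184 FPKM beside 334 FPKM in control shoots. The log2 ratio was -0.86 (q = 0.01 in the authors' deposited table). The level in heated shoots was thus 1.82-fold lower, and 9.17% of all records had a lower log2 ratio at that time. At 1 h the log2 ratio was -0.36 (q = 0.5 in the authors' deposited table), at 2 h it was -0.06 (q = 0.93) and at 10 h it was -0.25 (q = 0.64). Whether the heat difference itself changed between 20 min and 1 h was not tested.

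The range of CaM1-1 over the 5 times, 5.24-fold in heated and 5.68-fold in control shoots, was wider than its heat difference at any one time. A range takes the extremes of 5 values and a heat difference compares 2, so the measures are unlike. Time since the bath and time of day changed together over the series and cannot be told apart. In heated shoots it was 1.01 times as high at 20 min as at 10 min, and 1.96 times as high at 1 h as at 20 min. In controls the level was 1.88 times as high at 20 min as at 10 min, and 2.60 times as high at 1 h as at 10 min. The control step to 1 h, a log2 difference of 1.38, exceeded that of 98.3% of all records, of which 3.75% were at least 2-fold higher between these control groups. In heated shoots the step from 10 min to 1 h, a log2 difference of 0.99, exceeded that of 86.4% of records, of which 13.5% were at least 2-fold higher. The level at 10 h was 5.24-fold lower than at 1 h in heated and 5.68-fold lower in control shoots. At least 2-fold lower over the same span were 19.6% of all records in heated and 8.89% in control shoots. No test accompanies a step between times, as the authors' deposited table compares groups within a time only.

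CaM1-2, another gene for the CaM1 protein, stood at a lower level. Its early times resembled those of CaM1-1 in control shoots, and in heated shoots up to 20 min but not at 1 h. In heated shoots it stood at 45.6 FPKM at 10 min, 43.2 FPKM at 20 min, 45.7 FPKM at 1 h, 60.1 FPKM at 2 h and 64.9 FPKM at 10 h. In control shoots it stood at 40.8, 67.4, 74.2, 57.6 and 60.8 FPKM. The heated series stayed within 3 FPKM over the first 3 times, while the control was 1.65 times as high at 20 min and 1.82 times as high at 1 h as at 10 min.

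CaM1-2 was 1.62-fold lower in heated shoots at 1 h, with a log2 ratio of -0.69 (q = 0.04 in the authors' deposited table). At 20 min its log2 ratio was of similar size, -0.63, and did not pass (q = 0.07 in the authors' deposited table). Among records that averaged 20 FPKM or more, the smallest difference that passed was 1.59-fold at 20 min and 1.58-fold at 1 h in the authors' deposited table, so both values of CaM1-2 lay near the smallest difference that was called. At 10 min, 2 h and 10 h its log2 ratios were 0.16, 0.06 and 0.09, with q-values of 0.8, 0.93 and 0.89 in the authors' deposited table. At 10 h heated shoots were 1.42 times as high as at 1 h, and controls 1.22-fold lower, where CaM1-1 was more than 5-fold lower in both.

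CaM1-3, the remaining gene for this protein, had the opposite order at the early times. In heated shoots it stood at 63.8 FPKM at 10 min, 67.0 FPKM at 20 min, 42.0 FPKM at 1 h, 50.6 FPKM at 2 h and 44.4 FPKM at 10 h. In control shoots it stood at 49.7, 41.6, 37.3, 59.9 and 48.9 FPKM. Heated shoots were the higher ones up to 1 h and the lower ones at 2 h and 10 h. The widest gap was at 20 min, a log2 ratio of 0.67 and 1.61-fold, which did not pass (q = 0.06 in the authors' deposited table). At 10 min the log2 ratio was 0.35 (q = 0.48 in the authors' deposited table) and at 1 h it was 0.17 (q = 0.8). At 2 h it was -0.24 (q = 0.67 in the authors' deposited table) and at 10 h it was -0.14 (q = 0.83).

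CaM3, which encodes a separate calmodulin, was the most abundant after CaM1-1 in 8 of the 10 groups. In heated shoots it stood at 106 FPKM at 10 min, 107 FPKM at 20 min, 91.5 FPKM at 1 h, 91.0 FPKM at 2 h and 62.8 FPKM at 10 h, where CaM1-2 was at 64.9 FPKM. In control shoots it stood at 100.3, 80.2, 72.2, 96.3 and 72.3 FPKM. In controls at 1 h CaM1-2 was likewise just above it, at 74.2 FPKM. Its log2 ratios through the 5 times were 0.08, 0.41, 0.34, -0.08 and -0.20. None passed, with q-values of 0.36 to 0.91 in the authors' deposited table.

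OS05G0577500 was near the limit of what the table records. In heated shoots it stood at 0.17 FPKM at 10 min, 0.63 FPKM at 20 min, 1.38 FPKM at 1 h, 0.85 FPKM at 2 h and 0.34 FPKM at 10 h. In control shoots it stood at 1.61, 1.72, 0.64, 0.33 and 0.47 FPKM. Heated shoots were lower at 10 and 20 min and higher at 1 h and 2 h, with q-values of 0.43 to 0.89 in the authors' deposited table. Its mean of 0.81 FPKM lay under the filter, and its differences are given as values only.

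**Figure D2:**
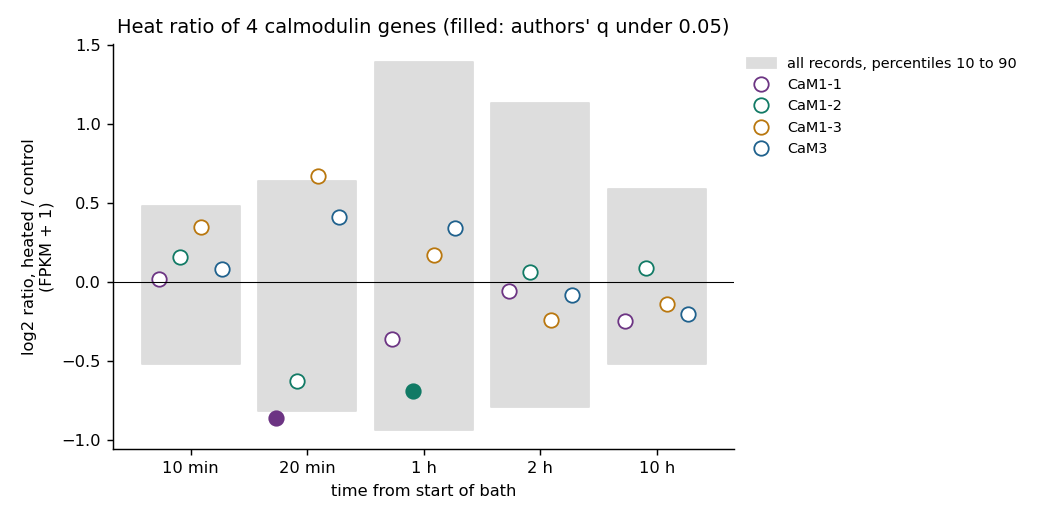
Log2 ratio of heated to control shoots on the log2(FPKM + 1) scale (y axis) for the 4 genes above the filter at each time (x axis). Grey bands span percentiles 10 to 90 of all 24219 records, and filled circles passed the authors' q of 0.05; at 20 min CaM1-1 and CaM1-2 lie at -0.86 and -0.63, and CaM3 and CaM1-3 at 0.41 and 0.67.

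The order of levels was the same in every group at the top and at the bottom, and mixed between them. CaM1-1 had a mean of 239 FPKM, CaM3 of 88.0 FPKM, CaM1-2 of 56.0 FPKM, CaM1-3 of 50.5 FPKM and OS05G0577500 of 0.81 FPKM. CaM1-2 and CaM1-3 traded places: CaM1-3 was above CaM1-2 in both groups at 10 min, in heated shoots at 20 min and in controls at 2 h, and below it in the other groups. CaM1-1 was close to the rest only at 10 h, at 68.7 FPKM in heated shoots beside 64.9 FPKM for CaM1-2. Without values per library, neighbours in this order cannot be separated by their spread.

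The genes also differed in how far they ranged over the 10 groups. The highest level was 6.75 times the lowest for CaM1-1, 1.82 times for CaM1-2, 1.80 times for CaM1-3 and 1.71 times for CaM3. Among 5847 records that averaged 20 FPKM or more and stood above 0 in every group, the median of this ratio was 2.97, with quartiles of 2.01 and 5.38. CaM1-1 exceeded 80.5% of these records, and the other 3 genes exceeded 14.0% to 18.1%.

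Summed over the 5 genes, the calmodulin level was 397 FPKM in heated and 371 FPKM in control shoots at 10 min, and 402 FPKM in heated and 525 FPKM in control shoots at 20 min. At 1 h the sums were 541 FPKM in heated and 648 FPKM in control shoots. They were 464 FPKM in heated and 487 FPKM in control shoots at 2 h, and 241 FPKM in heated and 264 FPKM in control shoots at 10 h. The log2 ratios of the sums through the 5 times were 0.10, -0.39, -0.26, -0.07 and -0.13, lowest at 20 min.

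Most of the variation of the sum lay in CaM1-1. Without it the sum of the others was 172 to 218 FPKM in heated and 182 to 214 FPKM in control shoots, and its log2 ratio at 20 min was 0.19. The share of CaM1-1 in the sum was 45.6% in heated and 48.1% in control shoots at 10 min, 45.7% in heated and 63.6% in control shoots at 20 min, and 66.6% in heated and 71.6% in control shoots at 1 h. By 10 h it was 28.5% in heated and 30.9% in control shoots, and CaM1-2, CaM1-3 and CaM3 then held 18.4% to 27.4% each. The 3 CaM1 genes together made up 73.1% to 82.8% of the sum in heated and 72.5% to 88.8% in control shoots. Calmodulin genes resemble each other in their coding sequences, and the sources used here do not say how the authors assigned reads that match several of them, so the split between genes is less certain than the sum.

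**Figure D3:**
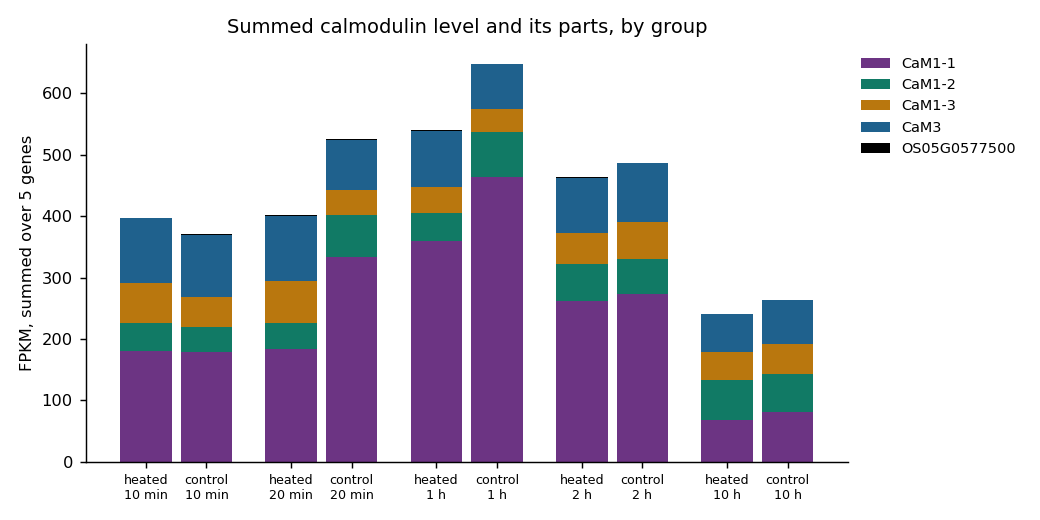
FPKM summed over the 5 genes (y axis, from 0) in each group, heated left of control at each time (x axis), with 1 colour per gene. The CaM1-1 part is 184 FPKM in heated and 334 FPKM in control shoots at 20 min and 68.7 FPKM in heated and 81.7 FPKM in control shoots at 10 h, while the parts above it differ less between groups.

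Genes for the same protein did not have the most similar profiles. On the log2(FPKM + 1) scale CaM1-3 and CaM3 had Pearson's r of 0.72 and Spearman's rho of 0.78 over the 10 groups, and CaM1-2 and CaM3 had r of -0.80 and rho of -0.89. CaM1-2 and CaM1-3 had r of -0.60 and rho of -0.73, and CaM1-1 and CaM1-2 had r of 0.08 and rho of 0.28. These are descriptions over 10 group values that share 5 sampling times, and each value of a group comes from the same 2 libraries for all genes. Of 22703 other genes with a mean of at least 1 FPKM, 819 (3.61%) had r of at least 0.8 with CaM1-1, 46 with CaM1-2, 204 with CaM1-3 and 255 with CaM3. The 2 profiles most like that of CaM1-1 were OS02G0577100 (r = 0.974) and OS06G0643300 (r = 0.972), both without a name in the sources used here. OS02G0577100 stood at 62.3 FPKM in heated and 60.6 FPKM in control shoots at 1 h, and at 12.9 FPKM in heated and 13.6 FPKM in control shoots at 10 h. At 20 min it stood at 40.5 FPKM in heated and 47.8 FPKM in control shoots. CaM1-1 was further apart then, at 184 FPKM in heated and 334 FPKM in control shoots.

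Other calcium sensors were taken from lists of IDs written down from background knowledge and not checked against an annotation, so an ID may stand on the wrong list, and a calmodulin gene may stand on the calmodulin-like list. Calmodulin-like proteins bind calcium through the same kind of domain, and calcium-dependent protein kinases carry a calmodulin-like domain joined to a kinase. Of 20 calmodulin-like IDs, 18 passed the filter, and of 28 kinase IDs, 21 did. A member that is high in heated shoots only could pass through those values, so these counts describe the records that passed and not whole families.

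In the calmodulin-like list 2 of 18 rose and 0 fell at 10 min in the authors' deposited table, beside 1.49% of all records higher and 2.16% lower. At 20 min 1 rose and 4 fell in the authors' deposited table, beside 3.22% of all records higher and 5.82% lower. An ID at 25.8 FPKM in heated and 54.7 FPKM in control shoots then had q printed as 0.05. It was not counted, and at 2 decimals it may lie on either side of the threshold. At 1 h 6 rose and 1 fell, beside 10.9% higher and 8.12% lower, and at 2 h 5 rose and 2 fell, beside 10.8% higher and 6.35% lower, as called in the authors' deposited table. At 10 h 0 rose and 0 fell in the authors' deposited table, beside 2.65% higher and 1.64% lower. The list's median log2 ratios through the 5 times were 0.02, -0.21, 0.19, -0.05 and -0.13. Single ratios ran from -0.64 to 4.50 at 1 h, and 9 of the 18 were called at 1 or more times in the authors' deposited table, where 32.0% of all records were.

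The 3 most abundant of these IDs behaved in different ways. OS01G0810300, at a mean of 234 FPKM, was called at no time in the authors' deposited table and stood at 199 FPKM in heated and 282 FPKM in control shoots at 1 h. OS05G0223000 rose at 10 min, at 267 FPKM in heated and 113 FPKM in control shoots, and again at 1 h, at 414 FPKM in heated and 189 FPKM in control shoots (the authors' deposited table prints q as 0.0 both times). OS01G0135700 rose at 1 h, at 615 FPKM in heated and 53.6 FPKM in control shoots, a log2 ratio of 3.49 (the authors' deposited table prints q as 0.0). At that time it exceeded the 360.2 FPKM of CaM1-1 in heated shoots.

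In the kinase list 2 of 21 rose and 0 fell at 10 min, 0 rose and 4 fell at 20 min, 4 rose and 1 fell at 1 h, 3 rose and 2 fell at 2 h, and 0 rose and 0 fell at 10 h, as called in the authors' deposited table. An ID at 5.27 FPKM in heated and 1.77 FPKM in control shoots at 20 min had q printed as 0.05. It was not counted, and at 2 decimals it may lie on either side of the threshold. The share of the list called in either direction was 9.52% at 10 min, 19.0% at 20 min and 23.8% at both 1 h and 2 h. Over all records the shares higher and lower were 1.49% and 2.16% at 10 min, 3.22% and 5.82% at 20 min, 10.9% and 8.12% at 1 h, and 10.8% and 6.35% at 2 h. At 1 or more times 8 of the 21 were called in the authors' deposited table, beside 32.0% of all records. Its median log2 ratios through the 5 times were 0.14, -0.08, -0.19, 0.13 and -0.07. OS04G0584600, the most abundant, fell at 20 min, at 58.4 FPKM in heated and 136 FPKM in control shoots (log2 ratio -1.20, q = 0.01 in the authors' deposited table). At 2 h it rose, at 116 FPKM in heated and 61.2 FPKM in control shoots (q = 0.02 in the authors' deposited table). OS03G0128700 rose at 1 h, at 63.1 FPKM in heated and 25.5 FPKM in control shoots (the authors' deposited table prints q as 0.0). OS01G0622600 was called at no time in the authors' deposited table.

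**Figure D4:**
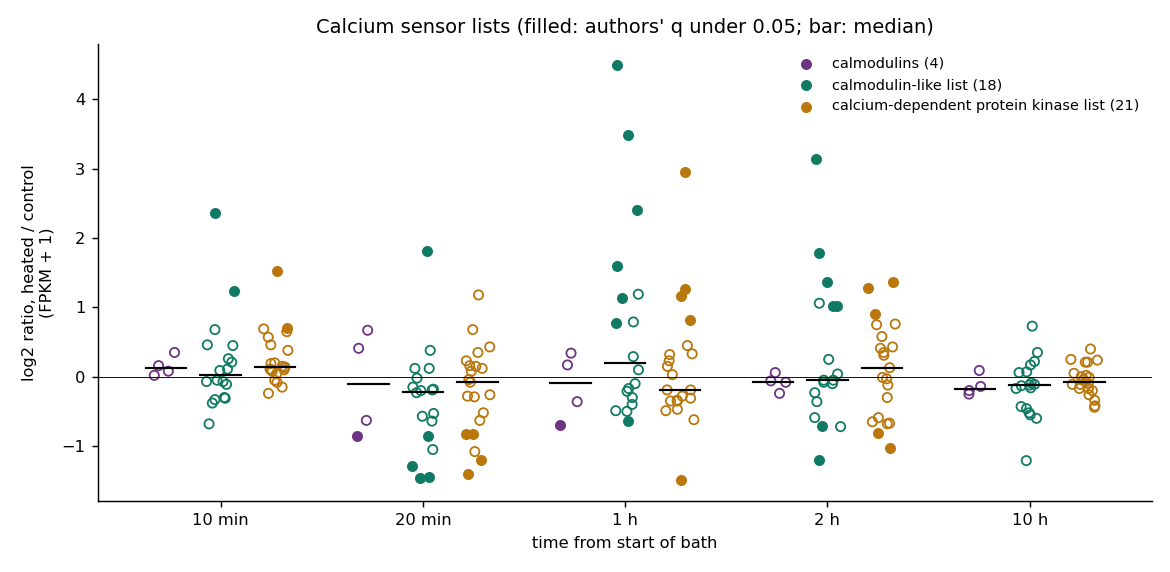
Log2 ratio of heated to control shoots on the log2(FPKM + 1) scale (y axis) at each time (x axis) for the 4 calmodulins, 18 calmodulin-like IDs and 21 kinase IDs that passed the filter; filled points passed the authors' q of 0.05, black bars are medians and horizontal scatter is only for display. At 1 h the calmodulins lie between -0.69 and 0.34, and the calmodulin-like IDs between -0.64 and 4.50.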

How the data were processed

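RNA of 20 libraries was sequenced on an Illumina instrument, as the labels' protocols say. Tools named in the submitters' processing notes are cutadapt, TopHat2 and Cufflinks, without versions, and the build is IRGSP-1.0. The deposited table gives FPKM in 1 column per group, the replicates having been combined by the authors. For each time it adds the authors' log2 fold change and q-value with 2 decimals, per the file headers. Which test gave the q-values is not given in the sources used. The limma model foreseen for values per library was not run. Identical rows were taken as 1 record, and 106 records whose deposited log2 fold change and FPKM ratio were more than 0.1 apart were left out. Log2 ratios used a pseudocount of 1 FPKM; calls used q under 0.05. The table holds 48683 rows, with 0 columns of other samples. Calls and likeness ranking were tested on simulated data. Members and lists were chosen with earlier results of these data known. All members are named. Of each calcium sensor list the 3 IDs of highest mean are named by ID. So are the 2 profiles nearest to CaM1-1 by Pearson's r and the 5 leaf photosynthesis IDs. Sequences of these genes were not used here. Python 3.11.15, pandas 2.3.3 and NumPy 2.4.6 were used. Alternatives were other q thresholds, a 2-fold minimum, a pseudocount of 0.1, rescaled groups, rows summed per ID and other filters.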

Additional observations from a re-analysis of the deposited data

Results flagged for a closer look

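CaM1-1 has a secondary row in the table that took no part in the comparisons and gave a signal above its controls, which were listed at 0 FPKM at every time. In heated shoots this row stood at 0.92, 1.81 and 1.29 FPKM at 10 min, 20 min and 1 h, each called in the authors' deposited table with q printed as 0.0, and at 0.23 FPKM at 2 h (q = 1.0). These values are small beside the 181 to 360.2 FPKM of the main row at the first 3 times. An exact 0 can be a failed estimate, so no ratio is given. The secondary row of CaM1-3, at 2.98 FPKM in heated and 0.77 FPKM in control shoots at 10 min, was not called (q = 0.44 in the authors' deposited table).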

How the results depend on the processing

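No paired analysis was possible because the table holds 1 value per group, and for the same reason no replicate could be left out. Log2 ratios of the 5 genes kept their direction at all 5 times with a pseudocount of 0.1, with rescaled groups and with rows summed per ID. Rescaling moved the median of all records by at most 0.07 (log2). It moved the log2 ratio of CaM1-2 at 1 h from -0.69 to -0.60, and that of CaM1-1 at 20 min from -0.86 to -0.85. No q-value was computed after rescaling. With a minimum of 2-fold the count of members lower was 0 at 20 min and 0 at 1 h in the authors' deposited table. Under a printed q of less than 0.01 it was also 0 at both times, but q for CaM1-1 at 20 min is printed as 0.01 at 2 decimals and may lie on either side. With q under 0.1 it was 2 at 20 min (CaM1-1 and CaM1-2), with 1 higher (CaM1-3). With no filter on low values, all records called higher numbered 882 at 10 min and 1440 at 20 min. With the filter they numbered 362 and 780 of 24219 records. The number of records without the filter was not kept, so no share is given for it. With a printed q under 0.01 the kinase list had 0 higher at 10 min and 1 lower at 20 min. At 1 h it had 2 higher and 1 lower, and at 2 h 2 higher and 1 lower. The calmodulin-like list had 2 higher at 10 min, and 1 higher and 3 lower at 20 min. At 1 h it had 5 higher and 0 lower, and at 2 h 5 higher and 1 lower. Some IDs of both lists had q printed as 0.01 at 2 decimals and may lie on either side. The background was counted at q under 0.05 only. Counts of members and lists at other q thresholds therefore have no share of all records beside them and cannot be read against it. Depth is unknown, so no counting error can be given for any of these values.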
